A study of Mus musculus with 12 samples.

Results

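The keratin genes were examined in hair follicle stem cells (HFSCs) of mouse back skin, as every gene symbol that begins with Krt and a digit, except the simple epithelial keratins Krt8, Krt18 and Krt20. The rule found 50 keratins among the 21915 genes of the hair cycle table and 41 among the 17885 genes of the Eed table, and all 41 were also in the first. RNA was sequenced from cells that had been sorted for CD34 and high α6-integrin among EpCAM+ and Sca1- cells, in 12 libraries of C57BL/6J mice, 3 for each of 4 groups. Anagen libraries came from wild type mice of postnatal days 28 to 30, in the growth phase of the hair cycle, and telogen libraries from wild type mice of postnatal days 50 to 52, in the resting phase, so that phase and age cannot be told apart. Control and Eed iKO libraries came from mice of postnatal day 70. The labels give the controls as wildtype and the iKO as Eed -/-. Per the methods, the iKO mice were K15-CrePGR; Eed flox/flox, in which a Cre recombinase driven by the promoter of keratin 15, one of the genes examined here, is active only after RU-486 is applied. RU-486 at 10 mg/ml was put on the skin for 7 days from postnatal day 50, and control mice received ethanol alone, so that the allele and the agent cannot be told apart. The labels number 3 replicates in each group without saying which animals or litters they came from, so the p-values measure the spread between these libraries.

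Keratins build the intermediate filaments of epithelial cells, and each filament pairs a type I with a type II keratin. In the mouse the type I genes lie in one cluster on chromosome 11 and the type II genes in another on chromosome 15. Basal cells of the epidermis and of the outer root sheath use Krt5 and Krt14, and the bulge, where HFSCs reside, also uses Krt15. Differentiating cells turn to other members, such as Krt1 and Krt10 in the layers above the basal layer, Krt6a and Krt75 in the companion layer, Krt25, Krt27, Krt28 and Krt71 in the inner root sheath that moulds the growing hair, and the hair keratins in the shaft itself. Eed is a core subunit of Polycomb repressive complex 2, which places the repressive histone mark H3K27me3.

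In the annotation used here 26 of the 50 keratins lie on chr11:99232761-100269871 and 24 on chr15:101347444-101954287 of GRCm38. By known site of expression, 4 were grouped as basal and bulge, 5 as companion layer and outer root sheath, 10 as suprabasal of epidermis and mucosa, 7 as inner root sheath, 15 as hair shaft and 9 as other. In the Eed table the inner root sheath group had 6 members and the hair shaft group 7, with the other groups complete. Values are normalized counts, which in the Eed table are reads after division by a size factor for each library. Most hair cycle values are not whole multiples of the smallest value of their library. Whole reads divided by such a factor do not give them, and how they were scaled is unknown. Levels can be compared between libraries of one table but not between the tables, which were normalized separately. A keratin was called where it passed the thresholds set in the methods, a p under 0.05 and a log2 fold change above 2 or below -2 between anagen and telogen, or above 1.5 or below -1.5 between Eed iKO and control. The methods do not say whether that p is adjusted, and it was taken here as the unadjusted p from limma. Elsewhere the study names an adjusted p, with a smaller fold, for the Eed comparison. Genes with a Benjamini-Hochberg adjusted p under 0.05 over all genes tested were counted beside these.

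The Eed libraries rest on 33269583 to 57063586 recovered reads each, while no read numbers could be had for the hair cycle libraries, whose depth is unknown. Keratins took 2.09% of all normalized counts in telogen replicate 1 against 4.41% to 4.97% in the other 5 hair cycle libraries, so the hair cycle counts, and the fold changes that it moved most, are also given without it. In the Eed table they took 3.16% to 3.71%, but replicate 3 of both groups had more suprabasal keratins than the other libraries. The genes of the sort were detected in every library, Epcam, Itga6 and Cd34 at a summed 12474 to 17308 normalized counts in the hair cycle table and 61783 to 73127 in the Eed table, and Ly6a, which encodes Sca1, at 5.59 to 28.5 and 27.1 to 170.5. Within the first sum Cd34 was lower in anagen, at 2955, 3233 and 4144 against 6433, 9159 and 8295 in telogen (log2 fold change -1.21, limma adjusted p = 0.00382), and Itga6, the gene of α6-integrin, was higher, at 11655, 11473 and 10531 against 4177, 6579.6 and 6856 (log2 fold change 0.97, limma adjusted p = 0.0144). Neither gene overlapped between anagen and telogen, and the part of these differences in those of the keratins was not tested. In the Eed table Itga6 was also without overlap, with a log2 fold change of 0.41 (limma adjusted p = 0.207), and Cd34 had one of -0.33 (limma adjusted p = 0.34). Eed itself had normalized counts of 1084, 1249 and 950.2 in the controls and of 933.3, 1361 and 1001 in the libraries labelled Eed iKO, which overlap (log2 fold change -0.01, adjusted p = 0.993 from limma). The values are counts per gene and not per exon, and why those of Eed did not differ was not tested. Directions for the libraries labelled Eed iKO rest here on their labels. The study also measured Eed mRNA by qRT-PCR and H3K27me3 by staining, which were not analysed here.

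The 3 basal and bulge keratins Krt15, Krt5 and Krt14 dominated every library. Together they made up 83.7% to 95.8% of the keratin counts in the hair cycle table and 85.1% to 91.6% in the Eed table, the lowest values being those of telogen replicate 1, Eed iKO replicate 3 and control replicate 3. Per kilobase of the longest coding transcript, the mean normalized count in anagen was 226609.9 for Krt15, 80005 for Krt5 and 12458 for Krt14, and the ranges over libraries of these 3 genes did not overlap. The next levels per kilobase in anagen were those of Krt17 at 5637, Krt24 at 3271 and Krt10 at 3175. The anagen libraries spanned 4997 to 6539.6 per kilobase for Krt17, above all values of Krt24 and Krt10, while Krt24 and Krt10 overlapped with each other and with Krt77. In telogen the order after Krt14 was Krt24, Krt77, Krt10 and Krt6a, and Krt17 stood in place 8 at 977 per kilobase. Krt14 and Krt24 overlapped there, as did Krt24, Krt77 and Krt10. In control HFSCs the order was Krt15, Krt5, Krt14, Krt24 and Krt6a, at 338237, 256562, 42377, 22118 and 13431 per kilobase, and the first 5 places were the same in Eed iKO. The ranges of Krt15, Krt5 and Krt14 did not overlap in either group, whereas those of Krt24 and Krt6a did in control.

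**Figure D1:**
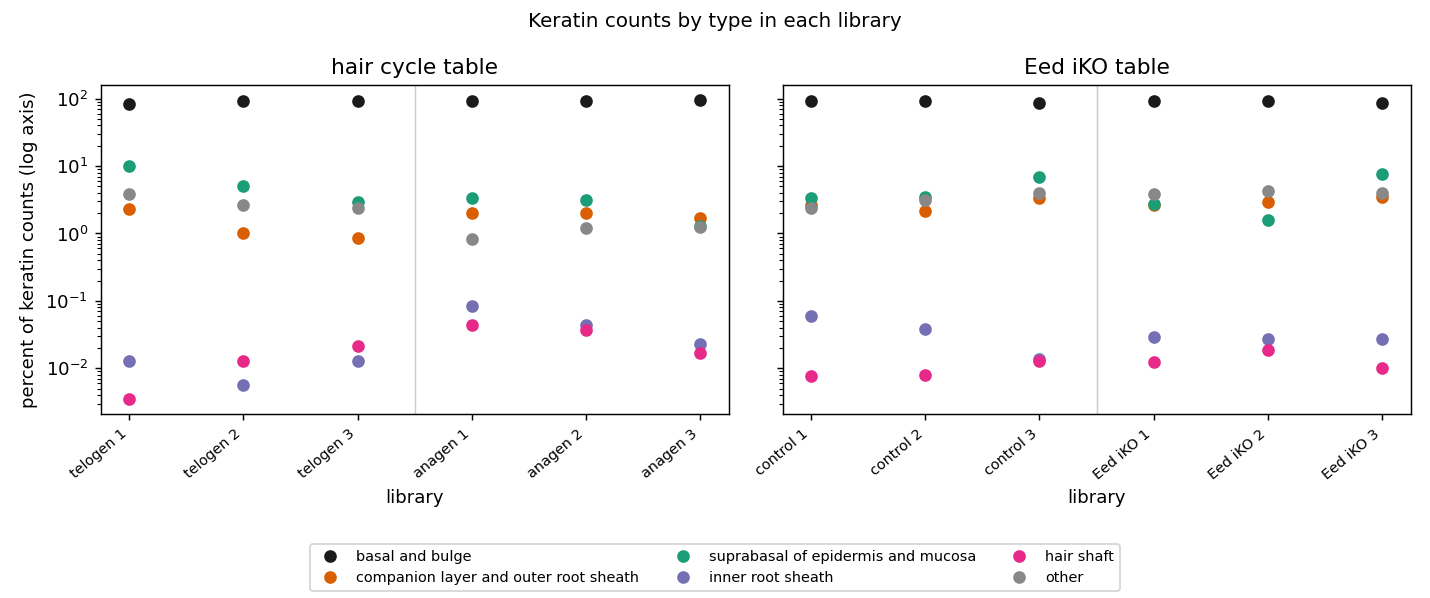
Share of all keratin counts taken by each keratin type, in percent on a log axis, in each library of the hair cycle table (left) and the Eed table (right); each point is 1 library. Basal and bulge keratins hold more than 83% everywhere, the suprabasal share is highest in telogen replicate 1, control replicate 3 and Eed iKO replicate 3, and inner root sheath and hair shaft keratins stay under 0.1%.

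Between anagen and telogen, 24 of the 50 keratins passed the filter on low values and 6 were called. Krt17, Krt16, Krt25, Krt27 and Krt28 were higher in anagen, which is 20.8% of the 24 tested keratins against 3.33% of all genes tested, and Krt7 was lower, which is 4.17% against 1.77%. At the adjusted threshold the same 5 were higher, where 7.22% of all genes were, and Krt24 was lower, where 4.35% of all genes were. The 3 libraries of anagen did not overlap with those of telogen for 12 of the 24 keratins, or 50.0%, against 33.3% of all genes. In 7 of them anagen was higher and in 5 lower. The median log2 fold change was 0.76 over the 24 keratins and 0.01 over all genes tested. Without telogen replicate 1 the same 6 keratins and Krt19 were called, 7 of 24 or 29.2% against 5.22% of all genes. The 6 that had passed the adjusted threshold with all libraries, with Krt24 and without Krt7, passed it again. The groups were then without overlap for 14 keratins, or 58.3%, against 43.0% of all genes, and the median log2 fold change was 0.20 over the keratins. Leaving it out moved the log2 fold change by 0.5 or more for Krt5, Krt7, Krt19, Krt27, Krt32, Krt71 and Krt75. Krt27 was then 3.49, Krt7 -2.69 and Krt71 1.72. Members that pass the filter through the group where they are high had to differ, so these counts describe the keratins that could be tested and not the family. In all differences between these sorted bulk samples, fewer cells of a type and less RNA per cell cannot be told apart.

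**Figure D2:**
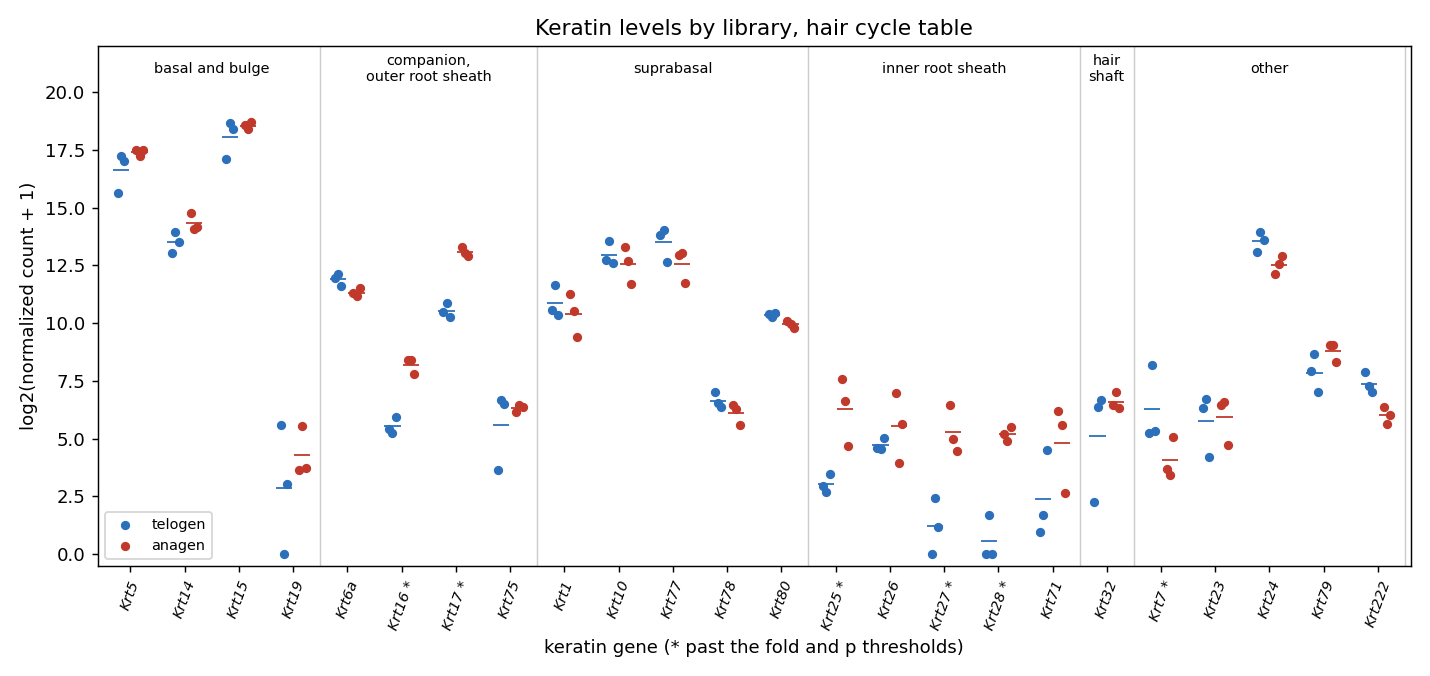
Level of each tested keratin in each library of the hair cycle table, as log2(normalized count + 1), with telogen in blue and anagen in red; each point is 1 library, the bar is the mean of 3, and a star marks keratins past the fold and p thresholds. Krt16, Krt17, Krt25, Krt27 and Krt28 lie higher in all anagen libraries than in any telogen library, Krt7 lies lower, and telogen replicate 1 (the leftmost blue point) is low for Krt5, Krt15, Krt75 and Krt32.

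The companion layer and outer root sheath keratins Krt17 and Krt16 had the clearest increase in anagen. Krt17 (ENSMUSG00000035557.9, chr11:100256217-100261029), a type I keratin of the outer root sheath, had normalized counts of 10143, 8333 and 7751 in anagen replicates 1, 2 and 3 and of 1421, 1877 and 1247 in telogen replicates 1, 2 and 3. Every anagen library lay far above every telogen library, a log2 fold change of 2.54 (SE 0.21, adjusted p = 4.40e-05 from limma) or 5.82-fold. Krt16 (ENSMUSG00000053797.10, chr11:100246091-100248902), a type I keratin of the outer root sheath that is known to be induced in wounded and hyperproliferative epidermis, had 336, 335 and 224 in anagen and 42.4, 36.7 and 60.7 in telogen. These groups were also well apart, with a log2 fold change of 2.66 (SE 0.38, limma adjusted p = 0.00155). Krt6a, the type II keratin that commonly pairs with Krt16, lay the other way, with 2493, 2306 and 2927 in anagen and 3984, 4458 and 3135 in telogen. The Krt6a libraries did not overlap, but the difference did not pass (log2 fold change -0.58, SE 0.20, limma adjusted p = 0.0846), except without telogen replicate 3, where it was -0.72 (limma adjusted p = 0.0496). Krt75 of the companion layer had 70.9, 87.6 and 81.2 in anagen and 11.6, 100.0 and 89.9 in telogen, where replicate 1 alone was low, and its log2 fold change of 0.72 became -0.25 without that library. Krt6b, at 6.59 ± 7.29 (SD, n = 3) normalized counts in anagen and 2.30 ± 3.08 (SD, n = 3) in telogen, was too low to be tested. Krt16 and Krt17 were called in each of the 11 fits run, which included leaving out each library in turn.

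In the inner root sheath group, 3 of 7 keratins were called, all higher in anagen, and they are near neighbours on chromosome 11, where the genes run in the order Krt24, Krt25, Krt26, Krt27, Krt28 and Krt10, all on the minus strand. Krt25 (ENSMUSG00000035831.2, chr11:99315516-99322951) had normalized counts of 189, 97.3 and 25.1 in anagen and 6.76, 5.56 and 10.1 in telogen. Krt27 (ENSMUSG00000017588.2, chr11:99345565-99351104) had 86.0, 31.2 and 20.9 in anagen and 0, 4.44 and 1.26 in telogen. Krt28 (ENSMUSG00000055937.1, chr11:99364872-99374903) had 36.2, 28.5 and 44.8 in anagen and 0, 2.22 and 0 in telogen. All 3 encode type I keratins of the inner root sheath, and for each of them the lowest anagen library was above the highest telogen library, although the anagen libraries spread over several fold for Krt25 and Krt27. Krt27 and Krt28, at most 4.44 in telogen, passed the filter on low values through their 3 anagen libraries alone. Their lack of overlap was therefore fixed by the filter and is no support for a difference. The log2 fold changes were 3.25 (SE 0.75) for Krt25, 4.09 (SE 0.89) for Krt27 and 4.64 (SE 0.82) for Krt28, with limma adjusted p-values of 0.0186, 0.014 and 0.00503. Because telogen levels of Krt27 and Krt28 were near 0, their fold changes depend on the constant added before taking logs, and with 0.1 in place of 1 they were 5.49 and 6.98. The 3 genes were called in all 11 fits, while the adjusted p of Krt25 and Krt27 reached 0.118 and 0.103 without anagen replicate 1, and 0.155 and 0.112 when all genes were fitted without the filter.

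Krt26, which lies between Krt25 and Krt27 and is known from the inner root sheath cuticle, had 127, 14.6 and 48.9 normalized counts in anagen and 23.4, 22.5 and 31.7 in telogen, which overlap (log2 fold change 0.80, limma adjusted p = 0.51). Krt71, the type II partner in the inner root sheath, had 71.8, 47.3 and 5.22 in anagen and 0.967, 2.22 and 21.5 in telogen. High anagen replicates 1 and 2 stood beside a low replicate 3 that overlapped with telogen, and the log2 fold change of 2.42 (SE 1.13) had a limma adjusted p of 0.194. It was called without anagen replicate 3 (3.51, limma adjusted p = 0.0853) or without telogen replicate 3 (3.47, limma adjusted p = 0.0819). Krt73, an inner root sheath cuticle keratin, was not tested. It was at 13.4, 15.1 and 4.16 in anagen and at 0 in the 3 telogen libraries. Summed over the 7 genes, inner root sheath keratins had 531, 243 and 149 normalized counts in anagen and 31.1, 36.9 and 67.1 in telogen, with every anagen library above every telogen library. Tchh, which encodes trichohyalin, the protein that fills inner root sheath cells, showed the same direction, with 943, 665 and 295 in anagen and 44.7, 56.7 and 119 in telogen (log2 fold change 3.07, limma adjusted p = 0.00271). Anagen replicate 1 was the highest and replicate 3 the lowest library of the group for Krt25, Krt27, Krt71 and Tchh alike. The other inner root sheath keratins did not share this order. Krt28 was highest in anagen replicate 3, Krt72 and Krt73 were highest in replicate 2, and Krt26 was lowest in replicate 2.

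The promoters of this run of neighbours are shown because 3 of them rose together while Krt24 fell. The 250 bases before the RefSeq start of each gene (GRCm38.p6, minus strand, written 5′ to 3′) are in lower case, and capitals mark TATAAA and the words CTTTGA and CTTTGT of LEF1/TCF sites on either strand.
Krt24, chr11:99285263-99285512: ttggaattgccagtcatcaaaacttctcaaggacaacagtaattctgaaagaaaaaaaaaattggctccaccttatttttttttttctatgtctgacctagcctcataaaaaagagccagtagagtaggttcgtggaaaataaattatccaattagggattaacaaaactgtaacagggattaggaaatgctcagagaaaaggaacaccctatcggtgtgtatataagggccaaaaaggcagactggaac
Krt25, chr11:99322952-99323201: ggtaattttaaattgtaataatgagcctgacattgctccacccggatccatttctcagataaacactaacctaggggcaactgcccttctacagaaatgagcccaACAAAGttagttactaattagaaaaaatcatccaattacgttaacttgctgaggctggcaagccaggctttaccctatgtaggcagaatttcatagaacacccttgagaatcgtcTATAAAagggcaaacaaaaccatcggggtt
Krt26, chr11:99337966-99338215: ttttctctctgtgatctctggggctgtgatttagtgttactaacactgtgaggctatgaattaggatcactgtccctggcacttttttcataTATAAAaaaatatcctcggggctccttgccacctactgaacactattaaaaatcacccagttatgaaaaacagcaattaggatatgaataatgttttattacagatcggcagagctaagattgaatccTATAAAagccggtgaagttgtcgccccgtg
Krt27, chr11:99351119-99351368: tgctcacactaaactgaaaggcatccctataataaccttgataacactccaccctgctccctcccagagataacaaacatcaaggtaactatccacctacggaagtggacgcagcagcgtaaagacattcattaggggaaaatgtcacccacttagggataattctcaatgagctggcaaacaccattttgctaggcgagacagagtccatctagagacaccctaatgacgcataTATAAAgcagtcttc
Krt28, chr11:99374904-99375153: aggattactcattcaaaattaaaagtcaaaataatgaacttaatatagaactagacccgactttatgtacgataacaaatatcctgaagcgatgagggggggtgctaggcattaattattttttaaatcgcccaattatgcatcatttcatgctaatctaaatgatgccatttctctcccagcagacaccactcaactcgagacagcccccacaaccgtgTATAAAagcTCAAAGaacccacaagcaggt

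TATAAA stood at bases -30 to -25 before the start in Krt25, Krt26 and Krt28 and at -15 to -10 in Krt27, whose GENCODE start lies 14 bases further downstream. This exact word was not found in the Krt24 window, but the similar run tatataag begins there at base -30. Krt26 held TATAAA a second time at -158 to -153. The word CTTTGT was found in Krt25 on the opposite strand at -145 to -140, as ACAAAG, and CTTTGA in Krt28 at -21 to -16, as TCAAAG, while Krt24, Krt26 and Krt27 held neither. The word TGATAA of Gata3 sites was found in Krt27 at -212 to -207, and TGACTCA, to which AP-1 binds, in none of the 5. RefSeq windows were at hand for 33 of the 50 keratins, in 34 windows. TATAAA was in 47.1% of these on either strand and in 12.4% of all 32851 windows of this length, CTTTGA in 26.5% and 13.8%, CTTTGT in 8.8% and 16.5%, TGATAA in 14.7% and 7.9% and TGACTCA in 2.9% and 4.5%. A match of letters is no evidence of binding.

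**Figure D3:**
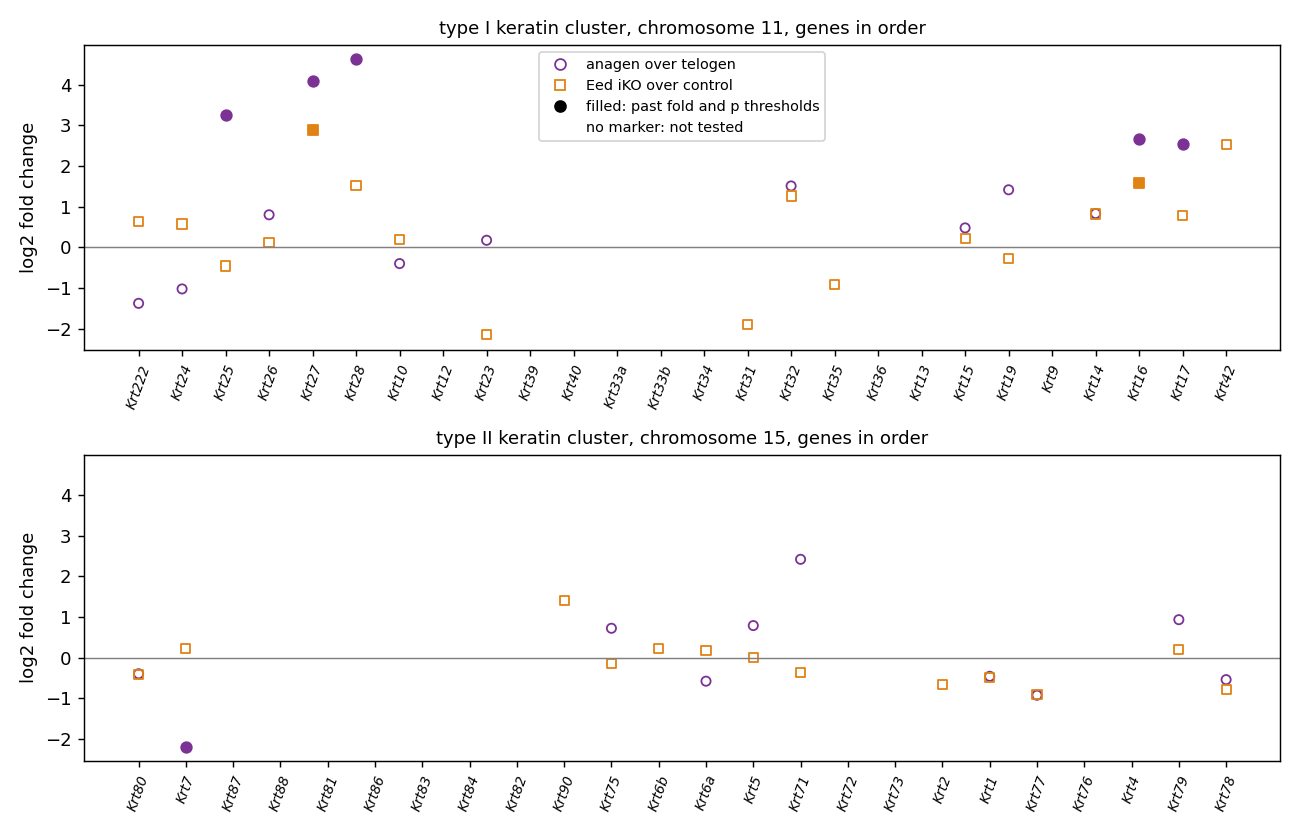
Log2 fold change of each tested keratin in the order of the genes along the type I cluster on chromosome 11 (top) and the type II cluster on chromosome 15 (bottom); circles are anagen over telogen, squares Eed iKO over control, and filled markers passed the fold and p thresholds of their comparison. In the hair cycle comparison Krt25, Krt27 and Krt28 stand above 3 while the adjoining Krt24 and Krt222 lie below -1, and the filled circle below 0 on chromosome 15 is Krt7.

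The basal and bulge keratins were not called. Krt14 (chr11:100203162-100207548) had normalized counts of 27781, 17214 and 18468 in anagen and 8334, 15817 and 11816 in telogen, with no overlap, and a log2 fold change of 0.83 (SE 0.26, limma adjusted p = 0.0622). Krt5 (chr15:101707070-101712898), its type II partner, had 183929, 156663 and 186721 in anagen and 50461, 155865 and 131957 in telogen, again without overlap but with the second telogen library close below the second anagen library (log2 fold change 0.79, limma adjusted p = 0.184). Krt15 (chr11:100131758-100135928), the bulge keratin whose promoter drives the Cre of the other experiment, had 388604, 344674 and 422433 in anagen and 142406, 416765 and 350444 in telogen, which overlap (log2 fold change 0.48, limma adjusted p = 0.418). Telogen replicate 1 was the lowest library for all 3. Without it the log2 fold changes were 0.60 for Krt14, 0.29 for Krt5 and 0.01 for Krt15, with limma adjusted p-values of 0.119, 0.351 and 0.989. Leaving out telogen replicate 2 instead put Krt14 past the adjusted threshold (1.06, limma adjusted p = 0.0285). Krt19, a keratin of the bulge and of simple epithelia, was low and scattered, at 11.4, 45.9 and 12.1 in anagen and 47.7, 0 and 7.23 in telogen. It was called only where telogen replicate 1, its highest library, was left out (log2 fold change 2.78, limma adjusted p = 0.136).

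None of the 5 tested suprabasal keratins was called, and the log2 fold change of each was below 0, between -0.92 for Krt77 and -0.39 for Krt80. Krt10, the type I keratin of the first layers above the basal layer, had 9995, 6601 and 3348 normalized counts in anagen and 6757, 11919.7 and 6254 in telogen. Its partner Krt1 had 2458, 1485 and 676 and 1509.9, 3190.4 and 1322. Both groups of libraries overlapped, and anagen replicate 3 was the lowest library for Krt1, Krt10, Krt77 and Krt78. Krt77 had 8027, 8283 and 3405 in anagen and 14616, 16551 and 6345 in telogen (limma adjusted p = 0.16). Its log2 fold change ran from -1.35 to -0.50 as each library was left out, and it passed the adjusted threshold without telogen replicate 3 (limma adjusted p = 0.0418). Of the keratins of this group, Krt80 was the steadiest, at 1102, 1007 and 892 in anagen and 1335, 1225 and 1373 in telogen, without overlap and with a limma adjusted p of 0.217. Krt2, a keratin of the upper epidermal layers that was not tested, was at 0.789, 0.893 and 1.04 in anagen and 4.84, 16.7 and 6.33 in telogen. Krt4, Krt9, Krt13 and Krt76, known from oral mucosa and sole skin, were at 0 in at least 2 telogen libraries and reached 45.8 in 1 anagen library, for Krt13.

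Of the 15 hair shaft keratins only Krt32, a keratin of the hair cuticle, passed the filter. It had 87.8, 129 and 79.5 normalized counts in anagen and 3.85, 80.5 and 100.3 in telogen, where replicate 1 stood far below the other 2. Its log2 fold change was 1.51 (limma adjusted p = 0.335) with telogen replicate 1 and 0.10 without it, and without telogen replicate 3 it was 2.30 and past the thresholds for a call. Among the 14 that were not tested, 9 were at 0 in all telogen libraries, 1 was at 0 in all anagen libraries and 1, Krt40, was at 0 everywhere. Krt35, which is found early in forming shaft cells, had 98.1, 52.9 and 4.74 in anagen and 2.64, 1.01 and 5.76 in telogen. Krt31 of the cortex had 15.8, 2.68 and 5.23 and 0.963, 0 and 0, and Krt33a 11.8, 4.44 and 9.38 and 0 in each telogen library. Krt39, Krt81, Krt82 and Krt86 were found in anagen replicate 1 alone, at up to 25.2 for Krt82, and Krt83 in anagen replicates 1 and 3.

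Among the other keratins, Krt24 and Krt7 were lower in anagen. Krt24 (ENSMUSG00000020913.3, chr11:99279959-99285262), a type I keratin of little known function, had 4501, 6003 and 7619 normalized counts in anagen and 8615, 15959 and 12473 in telogen. All anagen libraries were below all telogen libraries, and the log2 fold change of -1.02 (SE 0.26, limma adjusted p = 0.0284) passed the adjusted threshold but not the fold threshold. It passed in 2 of the 6 fits that left out 1 library, those without anagen replicate 3 or telogen replicate 1. Without telogen replicate 1 it was -1.26 (limma adjusted p = 0.00544). Krt7 (ENSMUSG00000023039.17, chr15:101411043-101430313), a keratin of glands and ducts, had 12.1, 9.91 and 33.0 in anagen and 37.3, 291 and 39.8 in telogen. Here the second telogen library stood alone, the third anagen library came close to the other telogen libraries, and the log2 fold change of -2.19 (SE 0.81) had an unadjusted p of 0.021 and an adjusted p of 0.11 from limma. Without telogen replicate 2 it was -1.22 and was no longer called, which also held without anagen replicate 1 or 2 and without the filter on low values. Krt222, the first gene of the type I cluster, had 82.6, 48.7 and 63.5 in anagen and 232, 152 and 129 in telogen, with no overlap and a limma adjusted p of 0.0513 for a log2 fold change of -1.37. It was -1.13 without telogen replicate 1 (limma adjusted p = 0.129). Krt79, known from the infundibulum, had 528, 530.0 and 314 and 241, 405 and 128, which overlap. Krt23 had a log2 fold change of 0.18 (95% interval -1.42 to 1.78). Krt42 was not tested and was at 13.2, 5.94 and 11.7 in anagen and 0, 0.794 and 0 in telogen, without overlap. Krt12, known from cornea, and Krt90 stayed under 6.3 in every library, and Krt88 was at 0 in all 6.

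Some markers of proliferation and of other cells differed between anagen and telogen. The proliferation marker Mki67 was at 14954, 12975 and 10404 normalized counts in anagen and 421, 431 and 276 in telogen. The 3 hair matrix markers summed to 62.9 to 75.5 in anagen and 17.5 to 53.0 in telogen, and 1 of them, Msx1, was called higher. Of 4 melanocyte markers 1, Dct, was called higher, and their sum was 435 to 770.2 in anagen and 72.7 to 151 in telogen. The 3 isthmus and infundibulum markers, none called but Lgr6 higher at the adjusted threshold, summed to 4783 to 5466 and 3022 to 3402. Of 5 fibroblast markers 3 were tested, and 2, Col1a1 and Dcn, were called higher. Dcn, at most 1.47 in telogen, passed the filter through its anagen libraries alone, so its direction was fixed by the filter. The third tested marker, Col1a2, was lower in anagen without overlap but was not called (log2 fold change -0.997, limma adjusted p = 0.108). The fibroblast sums of 456 to 627 and 299.9 to 647 overlapped. Those of the 6 interfollicular suprabasal markers also overlapped, at 7315 to 10759 and 8164 to 11195, and 1 of these markers, Flg, was called higher. Of 4 sebaceous, 5 immune, 3 endothelial and 4 bulge stem cell markers none was called, and Mc5r and Cdh5, which mark sebocytes and endothelium, were at 0 throughout. Their summed counts in anagen and telogen were 2311 to 2492 and 897 to 2992, 77.9 to 124 and 126 to 229, 59.8 to 105 and 67.3 to 134, and 13431 to 17067 and 16343 to 19039. The part of these cells in the keratin differences was not tested.

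The genes that work with keratins moved in part. Of the hair differentiation partners, 65 genes that include 57 keratin-associated proteins of the hair shaft, 4 passed the filter and Tchh alone was called. Of the keratin-associated proteins 40 were at 0 in all 6 libraries and 1 was tested, Krtap17-1, at 69.3, 21.3 and 38.2 in anagen and 1.9, 20.0 and 17.7 in telogen (limma adjusted p = 0.17). Of 12 regulators of keratin genes 11 were tested and none was called, but at the adjusted threshold Trp63, the p63 factor that maintains basal keratinocytes, was higher in anagen and Msx2 was lower. Trp63 had 29289.5, 30368 and 28812 in anagen and 12924, 17571 and 16855 in telogen (log2 fold change 0.91, limma adjusted p = 0.00935). Msx2, a homeobox factor of the hair matrix, had 151, 104 and 144 and 469, 434 and 315 (log2 fold change -1.60, limma adjusted p = 0.00806). Neither factor overlapped between anagen and telogen. The regulator that was not tested was Foxn1, a forkhead factor of the hair shaft. Of 6 proteins that anchor or bind keratin filaments, Evpl (envoplakin, log2 fold change 0.78, limma adjusted p = 0.0286) and Eppk1 (epiplakin, 0.67, limma adjusted p = 0.0426) were higher in anagen at the adjusted threshold, and Dsp, Plec, Ppl and Tchp did not pass.

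Between control and Eed iKO HFSCs, 30 of the 41 keratins passed the filter and 2 were called, Krt16 and Krt27, both higher in the libraries labelled Eed iKO. This is 6.67% of the tested keratins against 0.826% of all genes, and no keratin was called lower, where 0.926% of all genes were. No keratin passed the adjusted threshold with limma, where 0.0267% of all genes did, and none passed with edgeR's quasi-likelihood test on the recovered reads. At an unadjusted p under 0.05 there were 7 keratins, or 23.3% of those tested, against 14.7% of all genes. DESeq2 on the recovered reads passed 2 at the adjusted threshold, Krt14 and Krt17, or 6.67% against 4.48% of all genes. Control and Eed iKO were without overlap for Krt14, Krt15 and Krt80, 3 of the 30 keratins or 10.0%, against 20.2% of all genes. The median log2 fold change was 0.19 over the 30 keratins and near 0 over all genes tested.

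**Figure D4:**
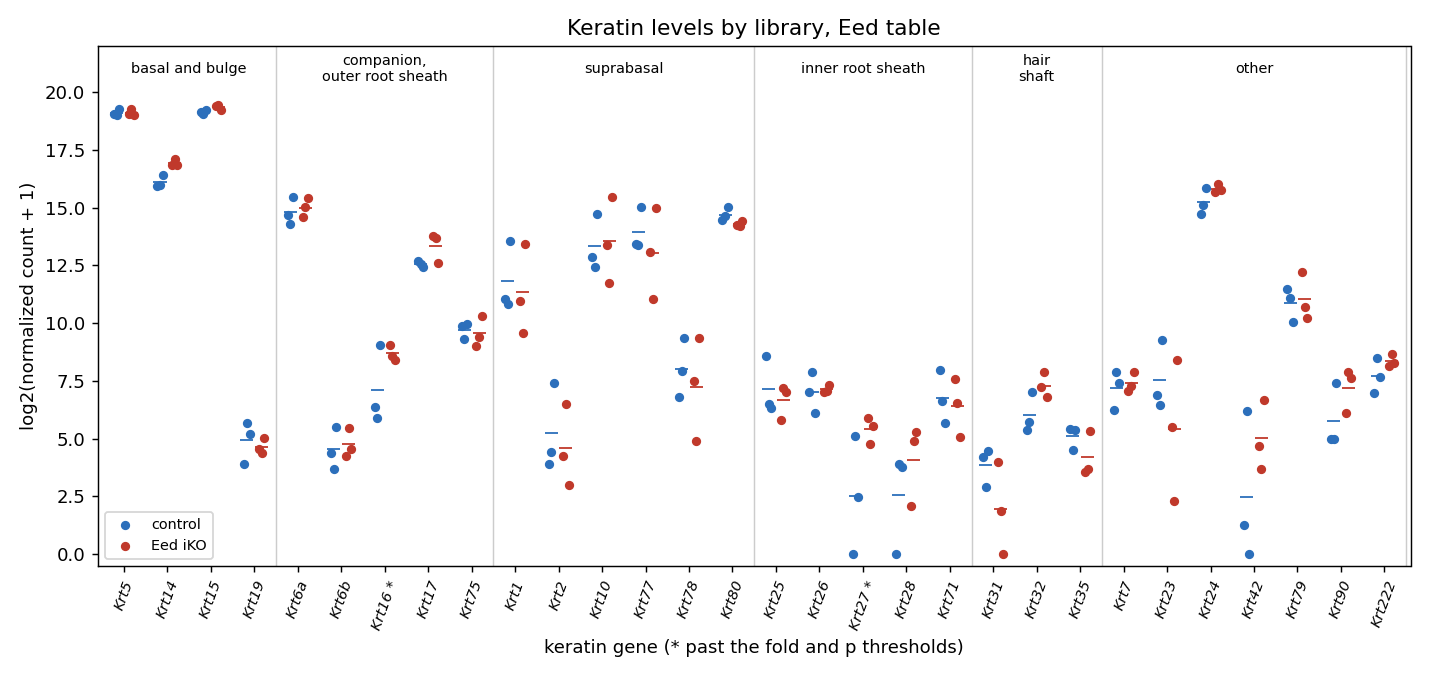
Level of each tested keratin in each library of the Eed table, as log2(normalized count + 1), with control in blue and Eed iKO in red; each point is 1 library, the bar is the mean of 3, and a star marks keratins past the fold and p thresholds. Krt14 lies higher in all Eed iKO libraries than in any control library, and the highest points of Krt1, Krt10, Krt77 and Krt78 are replicate 3 of both groups.

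Krt14 had the lowest p of the keratins. The controls had 62887, 65366 and 87613 normalized counts of it, in the order of their numbers, and the Eed iKO libraries 118195, 141718 and 118609. The lowest Eed iKO library lay well above the highest control library, and the log2 fold change was 0.82 (SE 0.18, 95% interval 0.43 to 1.21) or 1.77-fold, with an unadjusted p of 7.94e-04 and an adjusted p of 0.104 from limma. DESeq2 on the recovered reads gave 0.81 with an adjusted p of 7.71e-04, and edgeR gave 0.81 with 0.0896. Krt5, with which Krt14 pairs, had 540190.0, 524198 and 626609 in control and 544871, 637129.5 and 525123 in Eed iKO, which overlap fully, and the 95% interval of its log2 fold change of 0.01 ran from -0.46 to 0.48. Krt15, which marks the bulge and whose promoter drives the Cre, had 578146, 537242 and 609619 in control and 695369.7, 707811 and 619962 in Eed iKO. The groups did not overlap but control replicate 3 and Eed iKO replicate 3 came close, and the log2 fold change was 0.23 (limma adjusted p = 0.653). Krt19 was low, at 13.9, 50.9 and 35.4 in control and 22.6, 19.9 and 31.6 in Eed iKO.

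Of the outer root sheath keratins, Krt17 had the next lowest p and Krt16 the sixth. Krt17 had 6598, 6131 and 5602 normalized counts in control and 13945, 13313 and 6266 in Eed iKO. Eed iKO replicates 1 and 2 were high while replicate 3 lay among the controls, and the log2 fold change of 0.79 (SE 0.26) had an unadjusted p of 0.0125 and an adjusted p of 0.205 from limma. With DESeq2 on the recovered reads the adjusted p was 0.0239, and in limma without Eed iKO replicate 3 it was 0.00884 for Krt17 and 0.049 for Krt14. Krt16 had 81.2, 58.5 and 532 in control and 533, 386 and 339 in Eed iKO. Control replicate 3 was as high as the highest Eed iKO library, so the groups overlap, and the log2 fold change of 1.59 (SE 0.69, unadjusted p = 0.0439 and adjusted p = 0.321 from limma) ranged from 0.98 to 2.56 when each library was left out, and was past the thresholds in 1 of these 6 fits, that without control replicate 3. Krt16 was 0.90 with DESeq2 and was not called there. The libraries with high Krt17 were also those with the most Mki67, at 6125, 6301 and 609 in Eed iKO and 639, 2543 and 928 in control (limma adjusted p = 0.462), and its part in the Krt17 level was not tested. Krt6a had 26043, 20261 and 45484 in control and 24401, 33656 and 43171 in Eed iKO, where replicate 3 of either group was the highest, and Krt75 and Krt6b also overlapped.

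Of the inner root sheath keratins Krt27 was called. It had 0, 33.6 and 4.53 normalized counts in control and 59.1, 26.6 and 46.5 in Eed iKO, with control replicate 2 inside the Eed iKO range, and a log2 fold change of 2.89 (SE 1.20, unadjusted p = 0.035 and adjusted p = 0.296 from limma). It was called in 2 of the 6 fits that left out 1 library, those without Eed iKO replicate 2 or control replicate 2, and its log2 fold change ranged from 1.63 to 4.19 over the 6. DESeq2 gave 1.81 without a call. None of its neighbours was called, though Krt28 lay in the same direction. Krt25 had 380.2, 89.9 and 79.8 in control and 54.8, 147 and 130.5 in Eed iKO (log2 fold change -0.45). Krt28 had 0, 14.1 and 12.7 and 3.23, 29.2 and 37.6 (log2 fold change 1.53, 95% interval -1.39 to 4.44), and Krt26 and Krt71 had log2 fold changes of 0.13 and -0.36. Summed over 6 genes, the inner root sheath keratins had 759, 473 and 215 normalized counts in control and 439, 441 and 406 in Eed iKO, with control replicate 1 the highest and control replicate 3 the lowest of all. Tchh also overlapped, at 124, 779 and 248 in control and 509.7, 412 and 293 in Eed iKO.

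Of the 6 tested suprabasal keratins, 4 set replicate 3 of both groups apart from the other libraries, and none was called. Krt10 had 7484, 5443 and 26841 normalized counts in control and 10738, 3429 and 45519.7 in Eed iKO. Krt1 had 2138, 1802 and 11927 in control and 1988, 772 and 11058 in Eed iKO. Krt77 had 11169.9, 10575 and 32972 and 8684, 2086 and 32252, and Krt78 112, 245 and 646 and 182, 29.2 and 649. For all 4, replicate 3 was the highest library of each group and Eed iKO replicate 2 the lowest of all 6. The same replicate 3 libraries had the highest Ly6a, the gene of Sca1, against which the cells were sorted, with 27.1, 27.1 and 170.5 in control and 66.7, 30.5 and 137 in Eed iKO. The 6 interfollicular suprabasal markers summed to 26156 to 36476 in control and 38484 to 52255 in Eed iKO, with replicate 3 the highest of each group. None of them was at 0 in any library. The sum weighs abundant markers most, and the median log2 fold change over the 6 was -0.14. None was called higher in Eed iKO, and 1, Flg, was called lower. Whether such cells add to the suprabasal keratin counts was not tested. Without Eed iKO replicate 3, Krt1 and Krt77 were called lower, with log2 fold changes of -1.53 and -1.89 against -0.48 and -0.91 with all libraries. That fit kept control replicate 3, which was also high for both genes. Over the 6 fits that left out 1 library, Krt1 ranged from -1.53 to 0.39 and Krt77 from -1.89 to 0.089. Krt80 spread less, at 22413, 25387 and 33282 in control and 19211, 19063 and 22136 in Eed iKO, with replicate 3 again the highest of each group. Its groups did not overlap, although control replicate 1 and Eed iKO replicate 3 nearly met, and the log2 fold change of -0.41 (SE 0.16) had an unadjusted p of 0.0312 and an adjusted p of 0.284 from limma.

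Among the remaining keratins, Krt24 had 27355, 35722 and 59480.5 normalized counts in control and 51698, 66764 and 56016 in Eed iKO. Control replicate 3 lay inside the Eed iKO range, and the log2 fold change was 0.58 (unadjusted p = 0.0408 and adjusted p = 0.313 from limma). Krt32, the hair shaft keratin with the most counts, had 40.2, 52.0 and 129 and 148, 236 and 109.7 (log2 fold change 1.26, unadjusted p = 0.0478 and adjusted p = 0.332 from limma), again with a high control replicate 3. It was past the thresholds without that library (1.75) and without Eed iKO replicate 3 (1.52). Krt35 and Krt31 had log2 fold changes of -0.90 and -1.89 and overlapped between groups, and the other 4 hair shaft keratins of this table were at 0 in at least 3 of the 6 libraries. Krt23 spread from 3.98 to 611 with its highest values in replicate 3 of both groups, and was called lower without Eed iKO replicate 3 (-3.64 against -2.14 with all libraries). That fit kept control replicate 3, the highest library for Krt23. Krt7, Krt42, Krt79, Krt90 and Krt222 were between 0.20 and 2.54 on the log2 scale with overlapping groups. Of these, Krt42 was called without control replicate 2, where it was 4.39, and Krt90 without Eed iKO replicate 1 or control replicate 3, at 1.96 and 2.22. Krt88 was not tested and was at 1.08, 5.31 and 10.9 in Eed iKO and 0 in the 3 control libraries.

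None of the hair differentiation partners, regulators and filament partners was called in the Eed table or passed the adjusted threshold, with 4, 12 and 6 of them tested. Of these 22 genes, 4 are named here after their values were seen. The filament partners Ppl, Evpl and Dsp had unadjusted p-values under 0.05 with log2 fold changes of 0.69, 0.72 and 0.42 and limma adjusted p-values of 0.156, 0.145 and 0.338. Dsp, the desmoplakin that ties keratin filaments to desmosomes, had 279437, 302673 and 249037 normalized counts in control and 360418, 398161 and 348576 in Eed iKO, without overlap. Among the regulators 2 had an unadjusted p under 0.05 in limma, of which only Dlx3 is given here. Dlx3, a homeobox factor of the hair matrix, had 4080.1, 3452 and 4965 in control and 2145, 1586 and 2356 in Eed iKO (log2 fold change -1.04, limma adjusted p = 0.0899), also without overlap. Markers of Langerhans and other immune cells were called higher in Eed iKO for 2 of 5, Cd207 and H2-Ab1, with sums of 188 to 384 in control and 329 to 678 in Eed iKO. Cd207 was at 0 in all control libraries, so it passed the filter on low values through the Eed iKO libraries alone. Its direction was therefore fixed by the filter. Of 4 melanocyte markers 1, Tyrp1, was called higher, with sums of 238 to 493 in control and 309 to 495 in Eed iKO. No fibroblast, sebaceous, endothelial, hair matrix, isthmus or bulge stem cell marker was called, with sums in control and Eed iKO of 1589 to 3239.7 and 1216 to 1869.5 for 5 fibroblast markers, 5971 to 13102 and 5858 to 10498 for 4 sebaceous markers, and 156 to 591 and 355 to 468 for 3 hair matrix markers. The sums were 416 to 627 and 332 to 652 for 2 endothelial, 13343 to 21304 and 13204 to 21562 for 3 isthmus and 106788 to 135217 and 113868 to 133467 for 4 bulge stem cell markers. Their part in the keratin values was not tested.

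The ratio of a type I to a type II keratin within a library depends little on a size factor of that library where both are high. That of low pairs such as Krt25 and Krt71 does depend on it, through the 1 added to each count. A scaling that differs between genes would remain in the ratio, and the scaling of the hair cycle values is unknown. The ratio was taken for 6 pairs in each table. Groups were compared with two-sided exact permutation tests, which cannot go below 0.1 for 3 libraries against 3. Between control and Eed iKO, the log2 ratio of Krt14 to Krt5 was -3.10, -3.00 and -2.84 in control and -2.20, -2.17 and -2.15 in Eed iKO. The Eed iKO libraries were close together and all above the controls, by 0.81 on average (exact p = 0.10, 0.20 after adjustment over the 6 pairs). Krt15 over Krt5 and Krt10 over Krt1 were also higher without overlap, by 0.22 and 0.68, with the same exact p. For Krt10 over Krt1 the log2 ratios were 1.81, 1.59 and 1.17 in control and 2.43, 2.15 and 2.04 in Eed iKO, although the levels of both genes overlapped between the groups. The other 3 pairs overlapped.

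Between anagen and telogen, Krt14 over Krt5 was level, at -2.73, -3.19 and -3.34 in anagen and -2.60, -3.30 and -3.48 in telogen, a difference of 0.04 (exact p = 0.90). Krt15 over Krt5 was 1.08, 1.14 and 1.18 in anagen and 1.5, 1.42 and 1.41 in telogen. All anagen libraries were lower, by 0.31 on average, telogen replicate 1 lay with the other telogen libraries here, and the exact p was 0.10 (0.30 adjusted over the 6 pairs). Krt16 over Krt6a was -2.89, -2.78 and -3.70 in anagen and -6.52, -6.89 and -5.67 in telogen, a difference of 3.24 with no overlap and the same p-values. Krt17 over Krt75 differed by 1.82 with telogen replicate 1, where Krt75 was low, among the anagen libraries, and Krt10 over Krt1 and Krt25 over Krt71 overlapped.

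**Figure D5:**
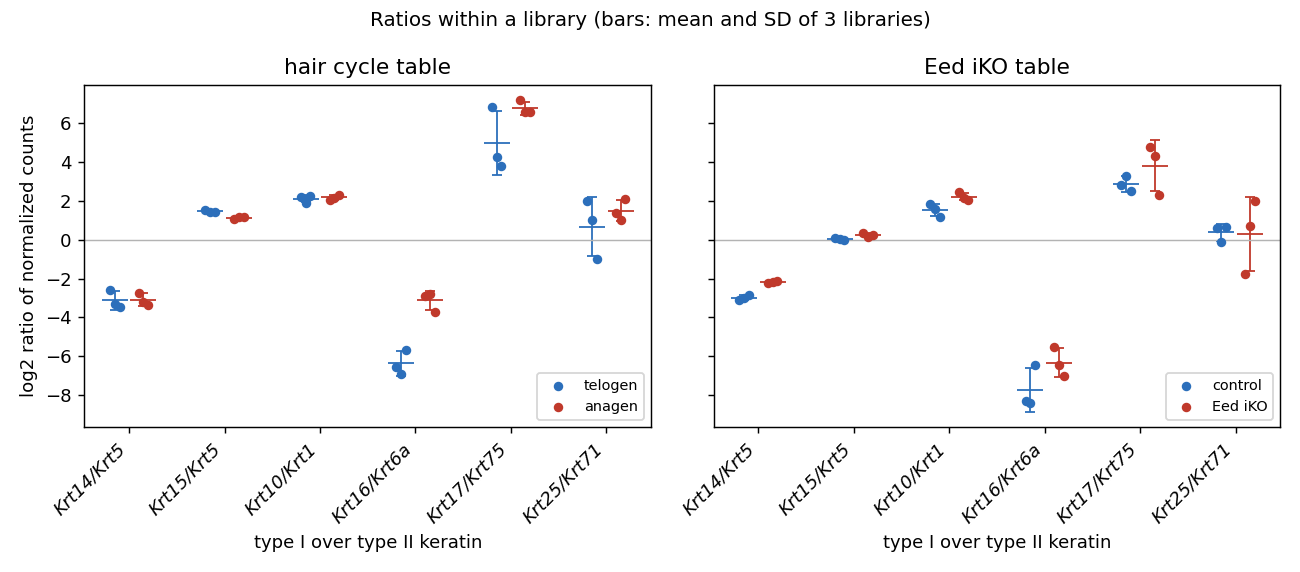
Log2 ratio of normalized counts of a type I over a type II keratin within each library, for 6 pairs in the hair cycle table (left) and the Eed table (right); points are libraries, and the bar and its error are the mean and SD of 3. Krt14 over Krt5 lies near -2.2 in the 3 Eed iKO libraries and between -3.10 and -2.84 in control, and Krt16 over Krt6a is higher in all anagen libraries than in any telogen library.

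Several keratins resemble each other closely, so that reads may be divided among them. Of the 31-base words in the transcripts of Krt6a, 62.0% also occur in another gene, mostly Krt6b, and the shares were 57.0% for Krt6b, 51.9% for Krt16, 28.2% for Krt14, 15.8% for Krt17 and 15.8% for Krt5. Krt16 shares 32.2% of its words with Gm11597 and 19.7% with Krt14, whose counts were far higher than those of Krt16 in every library. The level of Krt16 is therefore uncertain where Krt14 also differs, as are those of the hair keratins Krt31, Krt34, Krt81 and Krt86, of which 38.9%, 42.0%, 44.6% and 50.0% of words were shared. Krt25 and Krt27 share 15.7% and 17.8%, mostly with each other, and Krt28 5.77%.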

How the data were processed

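RNA from sorted HFSCs was amplified from small inputs and sequenced in 12 libraries. Per the methods and the submitters' processing notes, the authors assigned reads to the Gencode vM20 mouse transcriptome with Kallisto 0.42.5 and normalized and tested them with DESeq2 (the notes give version 3.11), for control against Eed iKO and for anagen against telogen, in protein-coding genes with a mean TPM over a minimum. The deposited tables hold normalized counts, a signal of reads divided by the size factor of each library, for every replicate. They also hold the authors' mean, and their log2 fold changes with errors, Wald score, p-values and adjusted p-values, none of which was used.

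Of the values of each Eed library, 100.0% were, to within 0.001 of a read, a whole number of times the lowest one above 0, which gave the reads back. This step was 0.694 to 1.33 normalized counts, and it tells least in Eed iKO replicate 3, where it was 0.989. Of those of the hair cycle libraries, 26.1% to 29.9% came out whole by the same tolerance, so its depth is unknown and no count test was run. Each table was analysed on its own in R 4.3.3. Genes with too few counts were removed by filterByExpr of edgeR 4.0.16 with a minimum count of 10, log2(normalized count + 1) was fitted with limma 3.58.1 with an intensity trend over all remaining genes, and p-values were adjusted by the Benjamini-Hochberg method over them. A fold change on this scale understates that of a low gene. The procedure was tested on simulated data. Alternatives were a pseudocount of 0.1, no filter, TMM scaling, a replicate block, leaving out each library, adjusted p alone and, for the Eed table, edgeR's quasi-likelihood test and DESeq2 1.42.0 on recovered reads, which called 243 and 255 genes where limma called 263. A fit without the intensity trend was added after seeing the data.

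Keratins were sorted into types by known site of expression, and all could be named. Values per library were required for basal and bulge keratins, called keratins and the 3 keratins with the lowest p in the Eed table, and other genes came from the lists of hair differentiation partners, keratin gene regulators and filament partners. The members, types and lists were chosen with earlier results of these data known. Ratios used log2((type I + 1)/(type II + 1)) and exact permutation tests, and Krt85, planned as the partner of Krt35, had no values here. Coordinates and transcripts were those of GENCODE vM21 on GRCm38, and promoters those of RefSeq. All columns of values could be matched to a sample by name. Amplification without molecular identifiers can widen the spread of low genes, and the strand setting of the counting is not given in the sources used here, so reads of overlapping genes on opposite strands cannot be separated.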

Additional observations from a re-analysis of the deposited data

How the results depend on the processing

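In the hair cycle comparison 6 keratins were called with each setting except that 10, with 9 higher, were called without the filter on low values. Krt7 was not among those 10, and it was called in 7 of the 11 fits. Leaving out 1 library gave 5 to 8 calls, 0 to 1 of them lower, and 3 to 7 past the adjusted threshold. In the Eed comparison the 2 calls, both higher, became 1 with a pseudocount of 0.1 and 0 without the intensity trend, with edgeR, with DESeq2 or by adjusted p, and leaving out 1 library gave 0 to 4 calls (4 without Eed iKO replicate 3, 0 without control replicate 1), 0 to 3 higher and 0 to 3 lower, and 0 to 2 past the adjusted threshold. DESeq2 passed 2 keratins at adjusted p. Over all genes, adjusted p passed 4 with limma, 5 with edgeR and 673 with DESeq2. The cause was not tested.

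The labels give the groups the same replicate numbers. Deviations of same-numbered libraries correlated at 0.039, 0.068 and 0.193 in the Eed table. There 2 of the 3 Eed iKO libraries correlated best with the control of their own number. The value of 0.193, for replicate 3, was the highest of any pair in either table. In the hair cycle table same-numbered libraries correlated at -0.035, -0.071 and -0.029. Whether same-numbered Eed libraries have more in common than a number was not tested. With a replicate block in the Eed table, 1 keratin was called lower, Krt23, and 2 passed the adjusted threshold, Krt14 and Krt17 (limma adjusted p = 0.009 and 0.03), while 424 of all genes passed in place of 4. In the hair cycle table the block called the same number of keratins, and Krt77, lower in anagen, passed the adjusted threshold with it (limma adjusted p = 0.017), as Krt222 did with TMM scaling (limma adjusted p = 0.04997).

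Leaving out 1 library turned the sign of 5 tested keratins in the hair cycle comparison, whose log2 fold changes then ranged for Krt23 from -0.59 to 0.79, Krt1 from -0.89 to 0.044, Krt10 from -0.76 to 0.030, Krt75 from -0.25 to 1.25 and Krt19 from -0.023 to 2.78. It turned the sign of 15 in the Eed comparison, which ranged for Krt75 from -0.51 to 0.13, Krt79 from -0.39 to 0.60, Krt1 from -1.53 to 0.39, Krt5 from -0.071 to 0.092, Krt6b from -0.19 to 0.71, Krt77 from -1.89 to 0.089, Krt78 from -1.82 to 0.39, Krt10 from -0.76 to 1.10, Krt2 from -1.62 to 0.43, Krt6a from -0.067 to 0.52, Krt7 from -0.24 to 0.57, Krt71 from -0.96 to 0.31, Krt25 from -0.86 to 0.26, Krt19 from -0.78 to 0.12 and Krt26 from -0.32 to 0.58. Krt26 was -0.040 with edgeR and -0.045 with DESeq2. None of these had been called. Among the ratios the difference in Krt14 over Krt5 ranged from -0.14 to 0.31, in Krt10 over Krt1 from -0.041 to 0.13 and in Krt25 over Krt71 from -0.012 to 1.49 between anagen and telogen, and in Krt25 over Krt71 from -0.94 to 0.94 between Eed iKO and control. Depth is unknown for the hair cycle libraries, so a keratin at 0 there has no floor. An exact permutation test of 3 libraries against 3 cannot go below 0.1.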
